A study of Homo sapiens with 8 samples.

Results

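The comparison described here is the change between 1 h and 6 h in RPE-1 cells that received all-trans-retinal (atRAL), followed gene by gene. RPE-1 is a human retinal pigment epithelial line immortalised with telomerase. At 6 h there were 2 such libraries, one with 25 µM atRAL plus extracellular vesicles (EV) from tonsil-derived mesenchymal stem cells at 2000000000 particles per ml, and one with 25 µM atRAL and no EV. The same 2 treatments were sequenced at 1 h, and the libraries were paired by EV status. The members are the 12875 genes, of 46427 in the table, with 100 or more counts in at least 1 of these 4 libraries. Neither fold change nor p-value entered the rule, but it reads the counts of the libraries compared. Of the members, 286 reached 100 counts at 6 h and not at 1 h and 280 at 1 h and not at 6 h. For these the choice itself favours a difference in that direction. The other 4 of the 8 libraries of the series received no atRAL (EV at 6 h, control at 6 h, EV at 1 h and control at 1 h) and gave the change over the same hours without atRAL. Each condition is 1 library of 1 cell line, and the labels name no separate cultures. A p-value here sets a change against the disagreement between the pair with EV and the pair without EV. That disagreement mixes technical scatter with any EV effect that differs between the times, so it is not a spread among replicates.

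Retinal is the light-sensitive part of visual pigment. In the eye it is released by light, and the pigment epithelium takes part in turning it back into the form that photoreceptors use. Free all-trans-retinal is a reactive aldehyde that is reduced to retinol or oxidised to retinoic acid, and an excess of it is toxic to retinal cells. Stressed cells can respond through the integrated stress response, in which phosphorylation of the initiation factor eIF2 slows translation while the transcription factor ATF4 is made and switches on genes for amino acid supply, redox balance and stress signalling. Oxidants and aldehydes also activate NRF2, which drives antioxidant genes such as HMOX1.

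The 8 libraries held 45566237 to 71822269 counts, so that 3 counts, the floor used for fold bounds, stand for 0.0418 to 0.0658 CPM (counts scaled to library size). Of 14 markers of the pigment epithelium, 6 passed the 100-count rule, among them MITF and OTX2, while RPE65, RLBP1, TTR and TYR stood at 0 to 0.157 CPM in the 4 libraries with atRAL. Summed over these 14 markers, the level was 150.8 to 160.3 TPM (the deposited level per transcript length) at 6 h with atRAL, 123.6 to 133.7 TPM at 1 h with atRAL, and 130.2 to 143.6 TPM in the 4 libraries without atRAL. Of the markers of other cells, 1 of 5 for leukocytes (CD68), 1 of 4 for endothelium and 0 of 5 for photoreceptors passed the rule. Of the mesenchymal markers 7 of 8 passed, and of the epithelial markers 3 of 7. The summed level of the mesenchymal markers was 17060 to 19060 TPM at 6 h with atRAL, 18150 to 18670 TPM at 1 h with atRAL and 17990 to 18520 TPM without atRAL. The epithelial markers summed to 1488 to 1612 TPM at 6 h with atRAL, 1648 to 1767 TPM at 1 h with atRAL and 1547 to 1801 TPM without atRAL. Mitochondrially encoded mRNAs held 3.77% of the counts with EV and 2.18% without EV at 6 h with atRAL, against 5.42% to 5.97% in the other 6 libraries. In bulk RNA, fewer cells of a kind and less RNA per cell cannot be told apart.

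Between 6 h and 1 h of atRAL, 1901 members were higher at 6 h and 1384 were lower (edgeR's quasi-likelihood test, adjusted p under 0.05, 2 libraries against 2). Of these, 436 were higher and 330 lower by at least 2-fold. Over all 17044 genes tested, 20.2% were called, 11.6% as higher and 8.64% as lower. With upper-quartile scaling the split of the members was 1579 higher and 1698 lower. Without atRAL, the same hours gave 5 members higher and 22 lower, against a background of 0.158% of genes called, 0.0293% higher and 0.129% lower. At an unadjusted p under 0.05 the members passing numbered 5392 with atRAL and 2468 without, and with DESeq2, 207 members were higher and 302 lower without atRAL. The standard deviation of the log2 change over members was 0.637 with atRAL and 0.404 without.

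The difference between both changes was tested directly, gene by gene. In 460 members edgeR called the change higher with atRAL than without, and in 192 lower (background 3.85% of genes, 2.7% higher and 1.15% lower). Of the members called higher at 6 h with atRAL and not called without it, 437 also had a called difference in that direction and 1456 did not. Of those called lower with atRAL and not called without it, 177 had a called difference and 1194 did not, and the missing call does not show that they changed alike. Over the 12874 members tested, the log2 changes with and without atRAL had a Pearson correlation of 0.308, a description across genes that are not independent. Leaving out any 1 of the 4 libraries without atRAL left 2 to 23 higher and 0 to 9 lower differences. Leaving out any 1 of the 4 with atRAL gave 498 to 1159 higher and 291 to 823 lower. In each case the model fits the libraries left on that side exactly, and the spread comes from the 4 libraries of the other side alone. These ranges therefore do not separate dependence on a library from a changed estimate of the spread. The time calls with atRAL numbered 939 to 1082 higher and 650 to 772 lower without any 1 of the libraries without atRAL (control and EV at 6 h and at 1 h), which enter that test through the estimate of the spread.

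**Figure D1:**
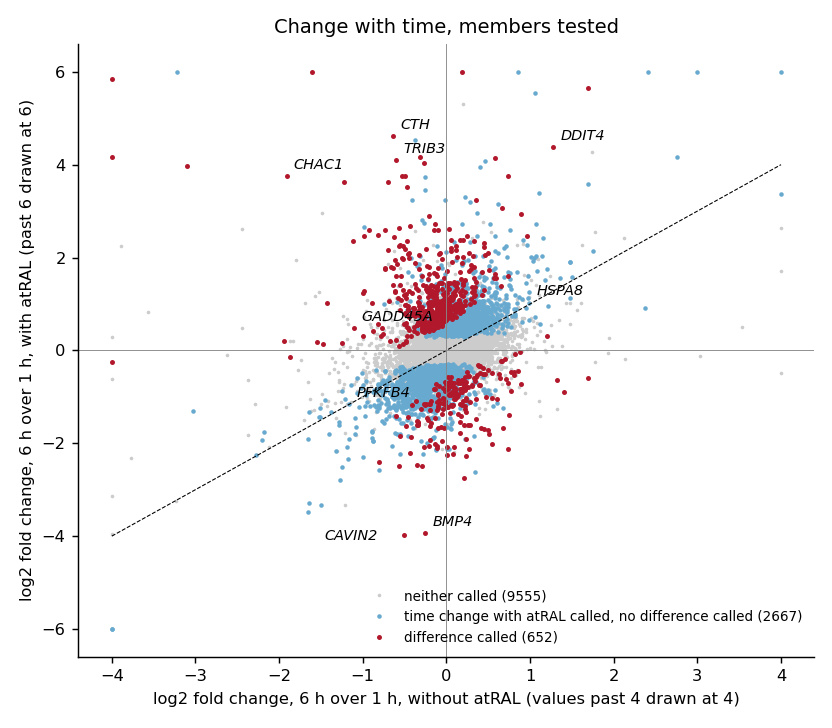
Each point is 1 of 12874 members tested. The vertical axis is the log2 fold change of 6 h over 1 h with atRAL, the horizontal axis the same without atRAL, and the dashed line marks equal changes; 20 points past the limits are drawn at the edge. The 652 members with a called difference lie away from the line, with CHAC1 and CTH far above it and BMP4 and CAVIN2 far below, while HSPA8 and PFKFB4 lie on it.

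Among the 36 lists of pathway genes, the largest median change was in the integrated stress response. Over all genes tested 11.6% were called higher and 8.64% lower, and the counts of each list are to be read beside these shares. Of the 21 members in a list of ATF4-pathway regulators and stress signals, 15 rose and 1 fell, with a median log2 change of 1.66, beside -0.00285 for all genes tested. Without atRAL the median of the same list was -0.52, with 0 members higher and 3 lower. A called difference in the upward direction was found for 13 of the 21. ATF4 itself, the transcription factor at the centre of the pathway, had 691 CPM with EV and 824 CPM without EV at 6 h, against 381 CPM with EV and 359.7 CPM without EV at 1 h. It rose with atRAL (log2 fold change 1.03 ± 0.11 SE, adjusted p = 0.0023) and fell without atRAL (-0.89 ± 0.11 SE, adjusted p = 0.048), and the difference was 1.91 ± 0.15 SE, adjusted p = 0.004. With no filter on low counts no fall without atRAL was called, that of ATF4 included, while its rise with atRAL kept its call. EIF2AK3, which encodes the eIF2 kinase PERK, rose (1.17 ± 0.10 SE, adjusted p = 0.0014), and EIF2AK4, which encodes the eIF2 kinase GCN2, was the member that fell (-0.78 ± 0.10 SE, adjusted p = 0.004). Both EIF2AK4 libraries at 6 h lay below both at 1 h, at 73.3 (EV) and 62.1 CPM (no EV) at 6 h, against 115 (EV) and 118 CPM (no EV) at 1 h. EIF2AK4 was chosen after its values were seen, so this order is a description.

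Several partners and brakes of ATF4 rose. DDIT3, CEBPG and PPP1R15A were chosen after their values were seen, so a lack of overlap between the times is a description. DDIT3, which encodes the stress transcription factor CHOP, had 77.4 CPM with EV and 126 CPM without EV at 6 h, against 17.9 CPM with EV and 10.7 CPM without EV at 1 h, and its rise was 2.82 ± 0.44 SE, adjusted p = 0.023. The values at 6 h did not overlap those at 1 h, and the call was lost without the control or the EV library at 1 h and with the 4 libraries with atRAL alone (adjusted p up to 0.0531). CEBPG, a dimer partner of ATF4, rose by 1.98 ± 0.15 SE, adjusted p = 0.0011, and JDP2, an AP-1 repressor, by 2.46 ± 0.15 SE, adjusted p = 0.00077. TRIB3, a pseudokinase that restrains ATF4, had 182 CPM with EV and 322 CPM without EV at 6 h, against 15 CPM with EV and 13.4 CPM without EV at 1 h. It rose with atRAL (4.09 ± 0.25 SE, adjusted p = 0.0014), and without atRAL it had 9.21 (EV) and 9.47 CPM (control) at 6 h, against 13.8 (EV) and 14.7 CPM (control) at 1 h. PPP1R15A, which encodes the subunit that directs a phosphatase to eIF2, rose by 1.28 ± 0.22 SE, adjusted p = 0.015.

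Among the stress effectors, DDIT4, which encodes the mTORC1 inhibitor REDD1, had 421 CPM with EV and 837 CPM without EV at 6 h, against 27.8 CPM with EV and 28.9 CPM without EV at 1 h. Its log2 change was 4.39 ± 0.25 SE, adjusted p = 0.0012, and the change without atRAL was 1.27 with an adjusted p of 0.12. SESN2, a leucine sensor that also restrains mTORC1, had 161 CPM with EV and 218 CPM without EV at 6 h, against 17.8 CPM with EV and 12.9 CPM without EV at 1 h (3.62 ± 0.26 SE, adjusted p = 0.0019). CHAC1, which encodes an enzyme that degrades glutathione, had 77.9 CPM with EV and 85 CPM without EV at 6 h, against 6.44 CPM with EV and 5.54 CPM without EV at 1 h. It rose with atRAL (3.76 ± 0.15 SE, adjusted p = 0.0002) and fell without atRAL (-1.91 ± 0.16 SE, adjusted p = 0.02), where it had 0.98 (EV) and 1.29 CPM (control) at 6 h, against 4.18 (EV) and 4.33 CPM (control) at 1 h. The difference of the changes was 5.67 ± 0.22 SE, adjusted p = 0.00031. Per length, DDIT4 was the most abundant of these 3 at 6 h, at 592 TPM with EV and 1223 TPM without EV, while CHAC1 had 122 TPM with EV and 142 TPM without EV.

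Secreted stress hormones of the list rose from very low levels. INHBE, which encodes the inhibin beta E subunit of activin E, had 352 counts with EV and 985 counts without EV at 6 h, against 0 counts in both libraries at 1 h. Against a floor of 3 counts per library it was at least 134-fold higher at 6 h with EV and at least 242-fold higher without EV. The 4 libraries without atRAL held 0 to 6 counts of INHBE. GDF15, a circulating stress cytokine, had 2.91 CPM with EV and 4.65 CPM without EV at 6 h, against 0.527 CPM with EV and 0.241 CPM without EV at 1 h (3.24 ± 0.46 SE, adjusted p = 0.006). The BH3-only gene HRK, whose product promotes apoptosis, likewise had 0 counts in both libraries at 1 h and was at least 26.0-fold higher with EV and at least 30.9-fold higher without EV at 6 h, with 68 and 126 counts in those libraries. INHBE and HRK passed the 100-count rule through their counts at 6 h alone, so their rise is a description here. The same holds for GDF15, CXCL3, PTGES, RAB39B, KLF4, BMPR1B, HEY1 and AREG. CAVIN2, PTGER4, NPAS4, ST6GAL2, DUSP2, TGFA, NUAK2 and IFIT1 passed through their counts at 1 h alone, and their fall is likewise a description. The p-values and called differences of all these genes, printed here and in other paragraphs, carry the same limit. INHBE and HRK were 2 of 6 members at 0 in both libraries of 1 time, and the others (CLMAT3, DNAAF4-CCPG1, TMX2-CTNND1 and TRIM6-TRIM34) include 3 readthrough models, whose counts are uncertain.

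**Figure D2:**
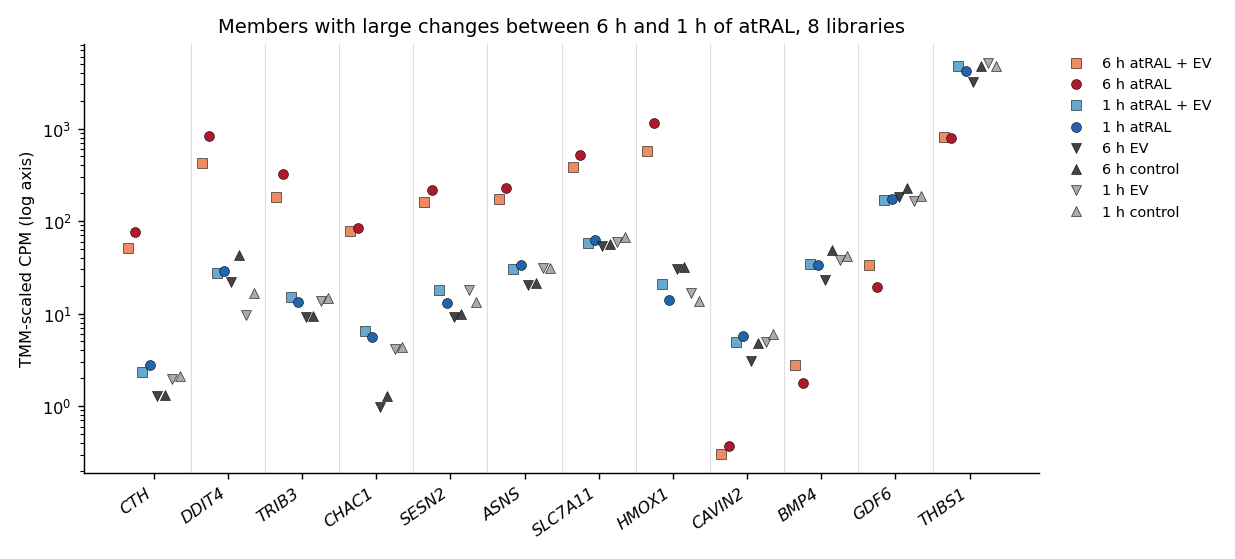
Normalised read counts (TMM-scaled CPM, log axis) of 12 members in each of the 8 libraries, with the atRAL libraries at 6 h first and those at 1 h next in each column, and libraries without atRAL in grey. For CTH through HMOX1 both 6 h libraries with atRAL lie above all other libraries, and for CAVIN2 through THBS1 they lie below all others.

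Most genes of the amino acid supply lists rose. Of 19 members in the list of amino acid synthesis and one-carbon genes, 12 rose and 2 fell (median log2 change 1.15). In the list of amino acid transporters, 11 of 14 rose and 0 fell (median 1.38). Among the cytosolic aminoacyl-tRNA synthetases, 12 of 20 rose and 0 fell (median 0.806). The change was called higher with atRAL than without for 11, 9 and 11 members of these 3 lists, and without atRAL the medians were -0.12, -0.133 and -0.122, with 0 members called. These lists, like the others, were written with earlier results of these data known, so their direction is not independent support.

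Within amino acid synthesis, the gene with the largest change was CTH, of transsulfuration. CTH, which encodes the enzyme that makes cysteine from cystathionine, had 51.8 CPM with EV and 75.9 CPM without EV at 6 h, against 2.32 CPM with EV and 2.8 CPM without EV at 1 h. The change was 4.61 ± 0.14 SE, adjusted p = 0.00012. Without atRAL, CTH had 1.27 (EV) and 1.32 CPM (control) at 6 h, against 1.95 (EV) and 2.1 CPM (control) at 1 h, and the difference of the changes was 5.26 ± 0.20 SE, adjusted p = 0.00031. CBS, the enzyme one step earlier, rose by 1.79 ± 0.20 SE, adjusted p = 0.0031. Serine synthesis moved with it, since PHGDH, PSAT1 and PSPH, its 3 enzymes, rose by 1.38, 2.35 and 1.22 on the log2 scale. PSAT1 had 225 CPM with EV and 293 CPM without EV at 6 h, against 51.4 CPM with EV and 49.3 CPM without EV at 1 h (2.35 ± 0.14 SE, adjusted p = 0.00077). ASNS, asparagine synthetase, had 174 CPM with EV and 226 CPM without EV at 6 h, against 30.6 CPM with EV and 33.2 CPM without EV at 1 h (2.64 ± 0.10 SE, adjusted p = 0.0002), and the mitochondrial folate enzyme MTHFD2 had 342 CPM with EV and 444 CPM without EV at 6 h, against 95.2 CPM with EV and 90.4 CPM without EV at 1 h (2.07 ± 0.13 SE, adjusted p = 0.00078). The cytosolic serine hydroxymethyltransferase SHMT1 fell (-0.72), whereas its mitochondrial counterpart SHMT2 rose by 1.15. TYMS, thymidylate synthase, was the other member that fell (-0.38 ± 0.09 SE, adjusted p = 0.024, lost in 8 of 20 alternatives, up to 0.0966), and ALDH18A1, of proline synthesis, had the largest change among the members not called (-0.31 ± 0.10 SE, adjusted p = 0.062).

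Transporters of cystine and large neutral amino acids were abundant genes that rose. SLC7A5, the light chain of the LAT1 exchanger, had 1258 CPM with EV and 1987 CPM without EV at 6 h, against 353 CPM with EV and 331 CPM without EV at 1 h (2.21 ± 0.24 SE, adjusted p = 0.0054), and its heavy chain SLC3A2 had 456 CPM with EV and 864 CPM without EV at 6 h, against 124 CPM with EV and 117 CPM without EV at 1 h (2.38 ± 0.26 SE, adjusted p = 0.0065). SLC7A11, the cystine importer that feeds glutathione synthesis, had 388 CPM with EV and 516 CPM without EV at 6 h, against 57.9 CPM with EV and 62.5 CPM without EV at 1 h (2.89 ± 0.11 SE, adjusted p = 0.0002). The cationic carrier SLC7A1, the neutral carrier SLC1A4 and the glycine carrier SLC6A9 rose by 1.60, 2.09 and 2.18 on the log2 scale. Among the synthetases, WARS1 for tryptophan and GARS1 for glycine changed most, by 1.90 ± 0.13 SE, adjusted p = 0.00084 and 1.81 ± 0.11 SE, adjusted p = 0.00077. CARS1, IARS1, SARS1 and TARS1 rose by 1.28, 1.27, 1.31 and 1.20. FARSB, a phenylalanine subunit, had the largest change among the 8 not called (0.28 ± 0.13 SE, adjusted p = 0.18).

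ATF4 acts with C/EBP proteins at a composite element, searched here as TGATGNAA on both strands in RefSeq promoter windows of GRCh38.p14 (250 bases before to 50 after the annotated start). The letters were found in 15 of the 59 members of the 4 lists above (ATF4 pathway, amino acid synthesis, transporters and synthetases) that have a window, which is 25.4%. They were found in 2.87% of the members called higher and 1.19% of those called lower, in 6.36% of the members called at least 2-fold higher and 2.48% of those called at least 2-fold lower, and in 1.84% of the 12367 windows of all genes tested. Of the 15, 13 were called higher and 0 lower. Of the other 44 with a window, 27 were called higher and 3 lower. Outside the 4 lists, 32 of 152 members with the letters were called higher (21.1%), against 1497 of 9968 members without them (15.02%). Of the 15, 8 are shown around the match, because they carry it upstream of the start and let the sites be compared, with the matched bases in capitals and each sequence written 5′ to 3′ on the strand of its gene.
AARS1 (chr16:70289666-70289713, strand minus): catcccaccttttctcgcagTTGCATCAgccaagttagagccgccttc
ASNS (chr7:97872449-97872496, strand minus): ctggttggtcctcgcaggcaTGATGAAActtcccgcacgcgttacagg
ATF3 (chr1:212565196-212565243, strand plus): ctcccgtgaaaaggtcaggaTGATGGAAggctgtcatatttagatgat
CHAC1 (chr15:40953242-40953289, strand plus): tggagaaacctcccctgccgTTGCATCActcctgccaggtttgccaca
GOT1 (chr10:99430795-99430842, strand minus): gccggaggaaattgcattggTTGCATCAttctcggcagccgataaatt
IARS1 (chr9:92293698-92293730, strand minus): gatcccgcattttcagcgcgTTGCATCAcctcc
MTHFD1L (chr6:150866337-150866384, strand plus): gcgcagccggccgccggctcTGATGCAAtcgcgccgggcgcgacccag
PPP1R15B (chr1:204412017-204412064, strand minus): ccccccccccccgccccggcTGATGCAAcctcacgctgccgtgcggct
In AARS1, CHAC1, GOT1 and IARS1 the letters lie on the strand opposite to the gene and read TTGCATCA in each, and in ASNS, ATF3, MTHFD1L and PPP1R15B they lie on the strand of the gene. The first matched base lies 13 bases before the start in IARS1, 68 in ASNS and 227 in PPP1R15B. ATF3 and PPP1R15B hold the letters and were not called, with log2 changes of 2.24 and 0.16. TRIB3, DDIT4, SESN2, GDF15, CTH, PSAT1, MTHFD2 and CBS have no match in their windows, which says only that these letters are not there. A match of letters is not a bound site, and binding was not measured. The antioxidant response core, searched as TGACNNNGC, was found in 17.6% of the members called higher and in 15.1% of all genes tested, with overlaps between matches of different motifs left in.

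Antioxidant genes rose beside the ATF4 genes. In the list of NRF2 targets 15 of 26 members rose and 0 fell (median 0.677, beside 0.043 without atRAL), and 3 had a called difference from the change without atRAL. HMOX1, which encodes heme oxygenase 1, had the largest log2 change of the list, with 569 CPM with EV and 1159 CPM without EV at 6 h, against 21 CPM with EV and 14.2 CPM without EV at 1 h. Its log2 change was 5.55 ± 0.54 SE, adjusted p = 0.013. Without atRAL HMOX1 had 30.7 (EV) and 32.2 CPM (control) at 6 h, against 16.6 (EV) and 13.7 CPM (control) at 1 h, and the difference of 4.48 on the log2 scale had an adjusted p of 0.073. GCLM and GCLC, the subunits of the enzyme that starts glutathione synthesis, rose by 2.22 ± 0.14 SE, adjusted p = 0.00078 and 1.25 ± 0.23 SE, adjusted p = 0.018, and SRXN1, which repairs peroxiredoxins, by 1.37 ± 0.22 SE, adjusted p = 0.012. OSGIN1 had 25.1 (EV) and 65.7 CPM (no EV) at 6 h, against 8.91 (EV) and 6.29 CPM (no EV) at 1 h, and its log2 change of 2.42 was not called (adjusted p = 0.055). GCLC had an adjusted p of 0.0519 when the 4 libraries with atRAL were used alone.

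Genes of autophagy and protein folding followed in part, beside 11.6% higher and 8.64% lower over all genes tested. Of 24 members in the autophagy list, 10 rose and 1 fell (median 0.374). SQSTM1, which encodes the cargo receptor p62, had 1434 CPM with EV and 3037 CPM without EV at 6 h, against 518 CPM with EV and 445 CPM without EV at 1 h (2.12 ± 0.37 SE, adjusted p = 0.031). CALCOCO2, another cargo receptor, rose by 0.79 ± 0.09 SE, adjusted p = 0.0032. MAP1LC3B and GABARAPL1, which encode proteins of the autophagosome membrane, rose by 1.65 ± 0.12 SE, adjusted p = 0.00091 and 1.86 ± 0.29 SE, adjusted p = 0.018. In the list of endoplasmic reticulum chaperones and unfolded protein response genes, 5 of 23 rose and 1 fell, and the median was -0.0636. The 5 were sensors, regulators and degradation genes: ERN1, which encodes the sensor IRE1 (2.25 ± 0.12 SE, adjusted p = 0.00048), XBP1, its transcription factor target (1.45 ± 0.14 SE, adjusted p = 0.0019), HERPUD1, DNAJB9 and SYVN1 (1.38, 1.39 and 0.63). The one that fell was SDF2L1 (-0.51 ± 0.13 SE, adjusted p = 0.036), which passed in no run that left out 1 of the 8 libraries (adjusted p up to 0.118). The call of SQSTM1 was lost with the 4 libraries with atRAL alone and without any 1 of the 4 libraries without atRAL (adjusted p up to 0.0852).

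Heat shock genes were called in part, beside 11.6% higher and 8.64% lower over all genes tested. Of 21 members 7 rose and 0 fell with atRAL, 1 (HSPA8) rose and 0 fell without, and 2 had a called difference. HSPA8, the constitutive HSP70 chaperone, had 2702 CPM with EV and 2806 CPM without EV at 6 h, against 1401 CPM with EV and 1300 CPM without EV at 1 h, and without atRAL 3090 (EV) and 2655 CPM (control) at 6 h, against 1553 (EV) and 1341 CPM (control) at 1 h. It rose with atRAL (1.03 ± 0.09 SE, adjusted p = 0.0013) and without (0.99 ± 0.09 SE, adjusted p = 0.02), and the difference was 0.04 ± 0.12. CHORDC1, a co-chaperone of HSP90, and HSPH1, an exchange factor for HSP70, rose by 1.39 ± 0.10 SE, adjusted p = 0.001 and 1.20 ± 0.11 SE, adjusted p = 0.0016. HSPB8, a small heat shock protein that works with BAG3 in protein clearance, rose by 2.06 ± 0.15 SE, adjusted p = 0.0011 and had a called difference of 1.60 ± 0.21 SE, adjusted p = 0.015. The inducible HSPA6 stood apart in 1 library, with 0.549 CPM with EV and 28.6 CPM without EV at 6 h, against 0.142 CPM with EV and 0.219 CPM without EV at 1 h, and its change was not called (adjusted p = 0.077). HSPA7, a near-identical copy of HSPA6 whose counts are uncertain for that reason, was the only member not tested, with 6 counts with EV and 252 counts without EV at 6 h, against 4 and 2 counts at 1 h.

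Several genes that take up, carry or convert retinoids were higher at 6 h. Of 21 members in the retinoid list 7 rose and 2 fell, and 5 had a higher change with atRAL than without. Over all genes tested, 11.6% rose and 8.64% fell. STRA6, the membrane receptor for retinol-binding protein, had 19.8 CPM with EV and 16.2 CPM without EV at 6 h, against 2.44 CPM with EV and 2.21 CPM without EV at 1 h (2.95 ± 0.27 SE, adjusted p = 0.0016). CRABP2, which carries retinoic acid to the nucleus, had 44.1 CPM with EV and 51.1 CPM without EV at 6 h, against 9.29 CPM with EV and 9.2 CPM without EV at 1 h (2.36 ± 0.15 SE, adjusted p = 0.00078). DHRS3, a reductase that turns retinal into retinol, rose by 1.14 ± 0.20 SE, adjusted p = 0.015, RDH10, which oxidises retinol, by 0.75 ± 0.09 SE, adjusted p = 0.0036, and the retinoic acid target NRIP1 by 1.16 ± 0.10 SE, adjusted p = 0.0014. CYP26B1, which degrades retinoic acid, had 29 CPM with EV and 93.2 CPM without EV at 6 h, against 14.1 CPM with EV and 14.9 CPM without EV at 1 h, and its change of 1.84 was not called (adjusted p = 0.076). Of the receptors, RARG rose by 0.58 (adjusted p = 0.0195), while RARA, RARB, RXRA and RXRB were not called, with log2 changes from -0.52 for RARA to 0.30 for RARB. MEIS1, a homeobox factor, and TGM2, tissue transglutaminase, fell, with log2 changes of -0.85 and -0.35. The called members of this list of retinoic acid targets and retinoid metabolism thus went in both directions. The calls of MEIS1, TGM2 and RARG were lost in 5, 9 and 7 of 20 alternatives, among them without either library with atRAL and no EV, with adjusted p up to 0.111, 0.115 and 0.0829.

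Several inflammatory signals rose, beside 11.6% higher and 8.64% lower over all genes tested. Of 23 members of the list of NF-kB targets, cytokines and chemokines, 7 rose and 0 fell (median 0.322, beside -0.42 without atRAL). CXCL8, which encodes interleukin 8, had 217 CPM with EV and 116 CPM without EV at 6 h, against 40.6 CPM with EV and 16.6 CPM without EV at 1 h (2.60 ± 0.17 SE, adjusted p = 0.001), and the chemokine gene CXCL3 had 4.17 CPM with EV and 7.35 CPM without EV at 6 h, against 0.427 CPM with EV and 0.372 CPM without EV at 1 h (3.76 ± 0.39 SE, adjusted p = 0.0023). IL1B and IL1A, which encode the interleukin 1 cytokines, rose by 2.14 ± 0.16 SE, adjusted p = 0.0012 and 2.33 ± 0.37 SE, adjusted p = 0.011. The level of CXCL8 and IL1B at each time was higher in the library with EV. PTGS2, which encodes cyclooxygenase 2, had 142 CPM with EV and 89.8 CPM without EV at 6 h, against 29.1 CPM with EV and 6.95 CPM without EV at 1 h, and its change was not called (adjusted p = 0.087). PTGES, prostaglandin E synthase, had 6.02 CPM with EV and 20.6 CPM without EV at 6 h, against 0.926 CPM with EV and 0.46 CPM without EV at 1 h (3.95 ± 0.70 SE, adjusted p = 0.024). The calls of CXCL8 and IL1B were lost with no EV term in the model (adjusted p = 0.127 and 0.118), and that of PTGES in 5 of 20 alternatives (up to 0.0923).

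Apoptosis genes moved less uniformly. Of 22 members of the BCL2 and apoptosis list 6 rose and 1 fell. PMAIP1, which encodes the BH3-only protein NOXA, had 91.7 CPM with EV and 98.9 CPM without EV at 6 h, against 30.6 CPM with EV and 24.9 CPM without EV at 1 h (1.78 ± 0.17 SE, adjusted p = 0.0022). TNFRSF10B, the death receptor DR5, rose by 0.56 ± 0.11 SE, adjusted p = 0.016, and XIAP, an inhibitor of caspases, by 0.92 ± 0.10 SE, adjusted p = 0.0028. BCL2L1, the anti-apoptotic BCL-XL gene, fell (-0.49 ± 0.09 SE, adjusted p = 0.01). BBC3, which encodes PUMA, had 4.67 (EV) and 13.4 CPM (no EV) at 6 h, against 3.69 (EV) and 3.2 CPM (no EV) at 1 h and was not called (adjusted p = 0.11). Of 24 p53 targets 3 rose and 3 fell, near the shares over all genes tested (11.6% higher and 8.64% lower). Among them was GADD45A, which rose with atRAL (0.48 ± 0.10 SE, adjusted p = 0.016) and fell without (-1.11 ± 0.10 SE, adjusted p = 0.02). The calls of TNFRSF10B and GADD45A were lost in 5 and 3 of 20 alternatives (adjusted p up to 0.0669 and 0.0531).

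Further genes with large rises were RAB39B, which encodes a RAB GTPase, LURAP1L, CREB5, a CRE-binding factor, and KLF4, a zinc finger factor of the immediate early list. RAB39B had 12.7 CPM with EV and 19.4 CPM without EV at 6 h, against 0.827 CPM with EV and 0.942 CPM without EV at 1 h (4.15 ± 0.23 SE, adjusted p = 0.00064). LURAP1L had 30.5 CPM with EV and 55.8 CPM without EV at 6 h, against 3.23 CPM with EV and 2.76 CPM without EV at 1 h (3.76 ± 0.28 SE, adjusted p = 0.0014). CREB5 rose by 3.15 ± 0.32 SE, adjusted p = 0.0051 and KLF4 by 3.31 ± 0.49 SE, adjusted p = 0.01. In each of these the 2 libraries at 6 h lay above both libraries at 1 h. PTPRH, a receptor phosphatase, belonged with RAB39B to the genes with the largest difference between the changes with and without atRAL, at 3.47 ± 0.66 SE, adjusted p = 0.046.

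The deepest falls included secreted signals. BMP4, a bone morphogenetic protein gene, had 2.78 CPM with EV and 1.76 CPM without EV at 6 h, against 34.6 CPM with EV and 33.6 CPM without EV at 1 h (-3.93 ± 0.29 SE, adjusted p = 0.0016), and GDF6, of the same family, had 33.9 CPM with EV and 19.3 CPM without EV at 6 h, against 169 CPM with EV and 173 CPM without EV at 1 h (-2.74 ± 0.21 SE, adjusted p = 0.0016). CAVIN2, a coat protein of caveolae, had 0.307 CPM with EV and 0.372 CPM without EV at 6 h, against 4.94 CPM with EV and 5.76 CPM without EV at 1 h (-3.97 ± 0.24 SE, adjusted p = 0.00077). Each had a called difference from the change without atRAL, at -3.68, -2.95 and -3.47. EDN1, which encodes endothelin 1, fell (-3.48 ± 0.50 SE, adjusted p = 0.021), as did PTGER4, a prostaglandin E receptor (-2.79 ± 0.31 SE, adjusted p = 0.0032), and NPAS4, a factor induced by calcium signals (-3.29 ± 0.29 SE, adjusted p = 0.0014). OSR1, a zinc finger factor of mesoderm, and PRR16, a regulator of cell size, fell, with log2 changes of -2.63 and -2.49, and LINC00472 and CCDC190 had -2.51 and -2.48. Among the 186 members with a called lower difference that met the limits of the naming rule, the most negative differences between the changes with and without atRAL were those of BMP4, CAVIN2, GDF6, PALMD, ST6GAL2, SLITRK5, ADAMTS15 and CCDC85A.

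Other genes of the BMP pathway moved in both directions. In the list of BMP ligands, antagonists and ID targets, 4 of 17 rose and 4 fell, beside 11.6% higher and 8.64% lower over all genes tested. No test of the list was run. BMPR1B, a type I BMP receptor, had 4.1 CPM with EV and 2.97 CPM without EV at 6 h, against 0.898 CPM with EV and 0.811 CPM without EV at 1 h (2.04 ± 0.26 SE, adjusted p = 0.004), and SMAD9, a receptor-activated SMAD, SMAD6, an inhibitory SMAD, and BAMBI, a decoy receptor, rose by 0.96, 0.98 and 1.07 on the log2 scale. The antagonist genes FST and FSTL1 fell (-1.24 ± 0.30 SE, adjusted p = 0.038 for FST and -0.36 ± 0.10 SE, adjusted p = 0.04 for FSTL1). The call of FST was lost without any 1 of the 4 libraries without atRAL (up to 0.0812), that of FSTL1 in 10 of 20 alternatives (up to 0.23), and that of SMAD6 without either library with atRAL and no EV (up to 0.0842). ID1, ID2 and ID3, targets of the pathway, were not called, with log2 changes of 0.00, 0.10 and -0.12.

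Genes of Notch and Wnt feedback that were called all rose, 4 of 13. HEY1, a Notch target, had 1.28 CPM with EV and 4.38 CPM without EV at 6 h, against 0.37 CPM with EV and 0.679 CPM without EV at 1 h (2.26 ± 0.38 SE, adjusted p = 0.0097), and the receptor gene NOTCH2 and its ligand JAG1 rose by 1.03 ± 0.09 SE, adjusted p = 0.0014 and 0.56 ± 0.09 SE, adjusted p = 0.0093. HES1, another Notch target, had 19.8 (EV) and 23.5 CPM (no EV) at 6 h, against 148 (EV) and 55.3 CPM (no EV) at 1 h and was not called (adjusted p = 0.116). In the list of ERK phosphatases and Sprouty genes 1 of 18 rose and 2 fell, beside 11.6% higher and 8.64% lower over all genes tested. Calls this few are no result about the list. DUSP16, which acts on JNK and p38, rose (1.83 ± 0.19 SE, adjusted p = 0.0027). DUSP2 and SPRED3 fell (-2.25 ± 0.59 SE, adjusted p = 0.045 and -0.55 ± 0.11 SE, adjusted p = 0.016). Of 6 EGF receptor ligands AREG rose (1.71 ± 0.40 SE, adjusted p = 0.028) and TGFA fell (-1.06 ± 0.27 SE, adjusted p = 0.036). The calls of AREG, DUSP2, SPRED3 and TGFA were lost in 8, 10, 4 and 14 of 20 alternatives (adjusted p up to 0.202, 0.224, 0.0569 and 0.126), TGFA without any 1 of the 8 libraries, and that of HEY1 without the library with atRAL and no EV at 6 h (0.0634). Among 15 factors that destabilise messages 5 rose and 1 fell. ZFP36L2, which binds AU-rich elements, had 26.3 CPM with EV and 27.7 CPM without EV at 6 h, against 100.2 CPM with EV and 126 CPM without EV at 1 h (-2.06 ± 0.19 SE, adjusted p = 0.0024), while BTG1 and PNRC1 rose by 1.25 ± 0.18 SE, adjusted p = 0.0085 and 1.91 ± 0.28 SE, adjusted p = 0.01.

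Targets of YAP and TEAD, the output of the Hippo pathway, were called in the downward direction or not at all. Of 24 members 12 fell, 0 rose and 12 were not called, with a median of -0.836. Without atRAL the median was -0.278 and 1 fell. A called difference was found for 1 of the 24. CCN2, a matricellular growth factor gene, had 232 CPM with EV and 82.3 CPM without EV at 6 h, against 1738 CPM with EV and 1104 CPM without EV at 1 h (-3.32 ± 0.50 SE, adjusted p = 0.032). AMOTL2, which feeds back on YAP, had 68.6 CPM with EV and 24.7 CPM without EV at 6 h, against 242 CPM with EV and 249 CPM without EV at 1 h (-2.57 ± 0.44 SE, adjusted p = 0.036), and NUAK2, a kinase of actomyosin tension, had 1.05 CPM with EV and 0.776 CPM without EV at 6 h, against 5.81 CPM with EV and 3.94 CPM without EV at 1 h (-2.41 ± 0.22 SE, adjusted p = 0.0016). CCN1 had 323 CPM with EV and 52 CPM without EV at 6 h, against 1615 CPM with EV and 1064 CPM without EV at 1 h, and despite the size its change was not called (adjusted p = 0.081). The calls of CCN2 and EDN1 were lost when any 1 of the 4 libraries with atRAL was left out (adjusted p up to 0.366 and 0.382). The call of AMOTL2 was lost without any 1 of the 4 libraries without atRAL (up to 0.0985).

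Of 21 members of the list of actin and SRF genes 11 fell, 1 rose and 9 were not called (median -0.346, beside 0.011 without atRAL). ACTB, cytoplasmic beta actin, had 4619 CPM with EV and 2655 CPM without EV at 6 h, against 7454 CPM with EV and 6847 CPM without EV at 1 h (-1.03 ± 0.16 SE, adjusted p = 0.0087), and ACTG1, gamma actin, fell (-0.74 ± 0.09 SE, adjusted p = 0.0035). SRF, the factor that controls actin genes, had 48.6 CPM with EV and 33.4 CPM without EV at 6 h, against 138 CPM with EV and 104 CPM without EV at 1 h (-1.57 ± 0.12 SE, adjusted p = 0.0011) and a called difference of -1.23. Vinculin (VCL) and the calponin gene CNN2 fell, with log2 changes of -0.97 and -0.97. In the matrix and TGF-beta list, 1 of 21 rose and 2 fell, beside 11.6% higher and 8.64% lower over all genes tested. The collagens measured, COL5A2 excepted, were not called. THBS1, the thrombospondin gene of that list, had 819.6 CPM with EV and 783 CPM without EV at 6 h, against 4700 CPM with EV and 4171 CPM without EV at 1 h (-2.47 ± 0.16 SE, adjusted p = 0.001).

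Some cell cycle genes fell, by small steps. Of 27 members of the G1/S and replication list 11 fell, 0 rose and 16 were not called (median -0.362). Of 28 members of the G2/M list 9 fell, 0 rose and 19 were not called (median -0.159). CCNE2, which encodes cyclin E2, had 5.85 CPM with EV and 3.59 CPM without EV at 6 h, against 11.7 CPM with EV and 10.1 CPM without EV at 1 h (-1.24 ± 0.17 SE, adjusted p = 0.005). FEN1, a flap nuclease of replication, and UHRF1, which maintains DNA methylation, fell, with log2 changes of -0.94 and -0.83, and the mitotic kinesins KIF20A and KIF23 had -0.70 and -0.60. Of these falls 3 in the first list and 1 in the second had a called difference from the change without atRAL. PLK2, a polo-like kinase and p53 target, fell further, with 192 CPM with EV and 144 CPM without EV at 6 h, against 587 CPM with EV and 661 CPM without EV at 1 h (-1.90 ± 0.14 SE, adjusted p = 0.0012).

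Of 24 members of the cholesterol list 8 fell and 0 rose, among them LSS, lanosterol synthase (-0.73 ± 0.09 SE, adjusted p = 0.0032), and STARD4, a sterol carrier (-1.24 ± 0.24 SE, adjusted p = 0.023). In the PPAR and lipid storage list 4 of 15 rose, led by PLIN2, which coats lipid droplets (1.57 ± 0.13 SE, adjusted p = 0.0014), and PPARG, the nuclear receptor of fat storage (0.98 ± 0.17 SE, adjusted p = 0.01). Of 17 interferon-stimulated genes 5 fell and 0 rose. Over all genes tested, 11.6% were higher and 8.64% lower, and no test of these lists was run. IFIT1, an RNA sensor, had 1.1 CPM with EV and 0.873 CPM without EV at 6 h, against 3.99 CPM with EV and 5.5 CPM without EV at 1 h (-2.25 ± 0.26 SE, adjusted p = 0.0031), and IRF1, a transcription factor of the pathway, fell (-1.07 ± 0.16 SE, adjusted p = 0.0065).

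**Figure D3:**
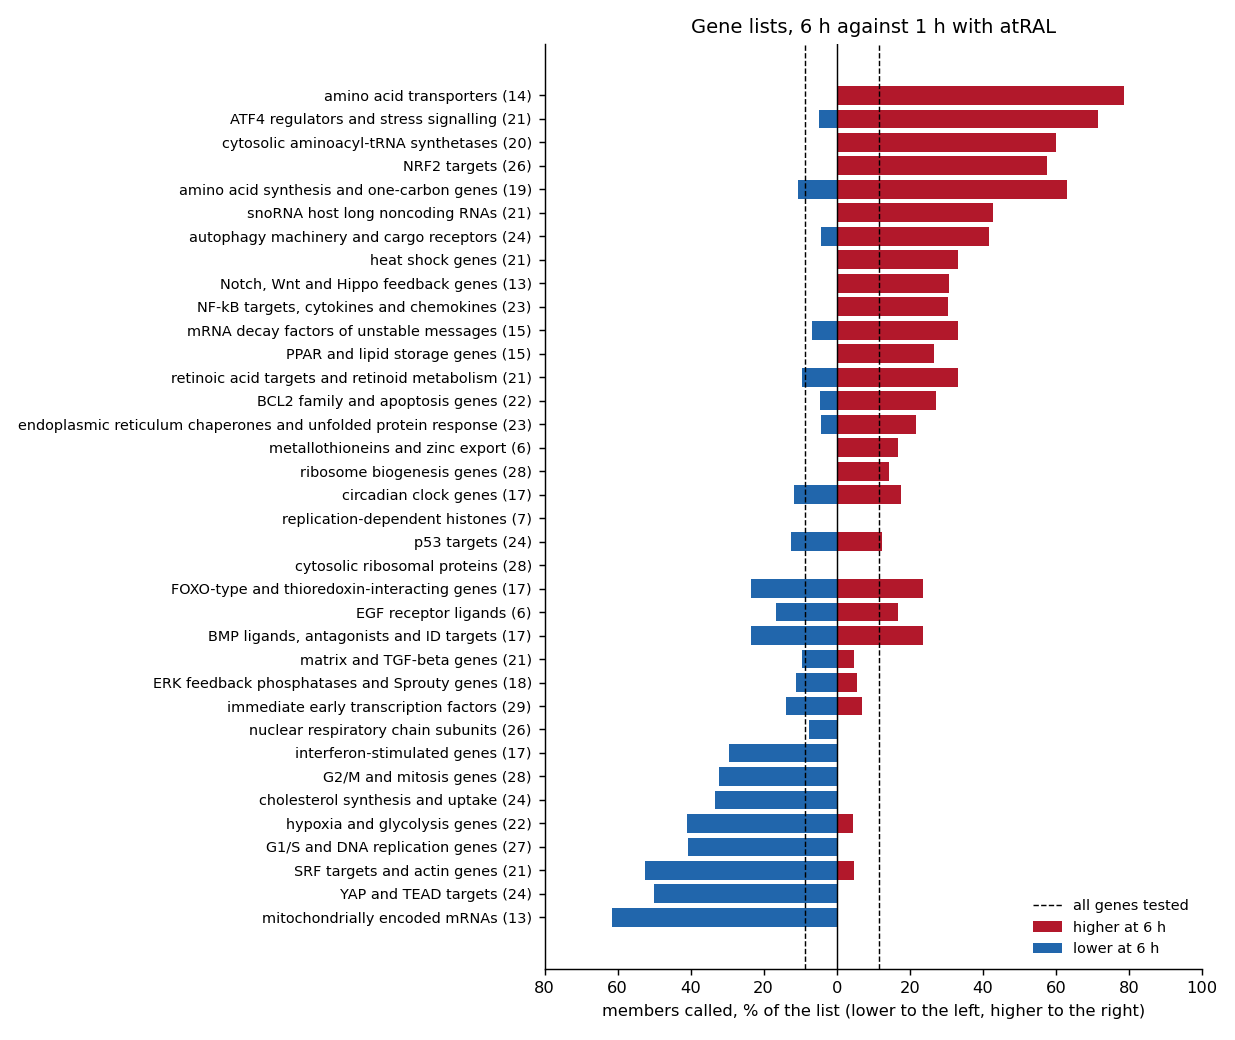
For each of the 36 gene lists, the bar to the right is the percentage of its members called higher at 6 h than at 1 h with atRAL and the bar to the left the percentage called lower, with the number of members tested in brackets. The dashed lines are the same percentages over all 17044 genes tested (11.6% higher and 8.64% lower). Amino acid transporters, ATF4-pathway genes, amino acid synthesis genes and tRNA synthetases reach farthest to the right, and mitochondrially encoded mRNAs, SRF and actin genes and YAP targets farthest to the left.

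The transcripts of the mitochondrial genome moved in opposite directions. Of the 13 mitochondrially encoded mRNAs 8 fell and 0 rose (median -0.848, beside -0.0528 without atRAL), and 0 had a called difference. COX1, subunit 1 of cytochrome c oxidase, had 9132 CPM with EV and 5178 CPM without EV at 6 h, against 14840 CPM with EV and 15250 CPM without EV at 1 h (-1.13 ± 0.20 SE, adjusted p = 0.018), and ND3, a subunit of complex I, had 342 CPM with EV and 219 CPM without EV at 6 h, against 519 CPM with EV and 564 CPM without EV at 1 h (-0.99 ± 0.19 SE, adjusted p = 0.019). All 13 were lower at 6 h than at 1 h in both pairs, with a median log2 ratio of -0.399 with EV and -1.30 without EV. The mitochondrial ribosomal RNAs RNR1 and RNR2 rose. RNR2 had 10410 CPM with EV and 8768 CPM without EV at 6 h, against 1774 CPM with EV and 1915 CPM without EV at 1 h (2.37 ± 0.11 SE, adjusted p = 0.00033), and RNR1 had 1294 CPM with EV and 1071 CPM without EV at 6 h, against 216 CPM with EV and 235 CPM without EV at 1 h (2.38 ± 0.12 SE, adjusted p = 0.00038). Both had called differences from the change without atRAL (2.21 ± 0.15 SE, adjusted p = 0.003 for RNR2 and 2.19 ± 0.16 SE, adjusted p = 0.0037 for RNR1). Together they held 1.15% of the counts with EV and 0.981% without EV at 6 h, against 0.197% with EV and 0.215% without EV at 1 h, and 0.183% to 0.244% without atRAL. The libraries were made with a kit for mRNA. Of 26 nuclear respiratory chain subunits 2 fell and 0 rose (median -0.0912). The calls of ND1, ND4, ND5, COX2 and COX3 were lost in 5 to 9 of 20 alternatives, with adjusted p up to 0.0909.

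**Figure D4:**
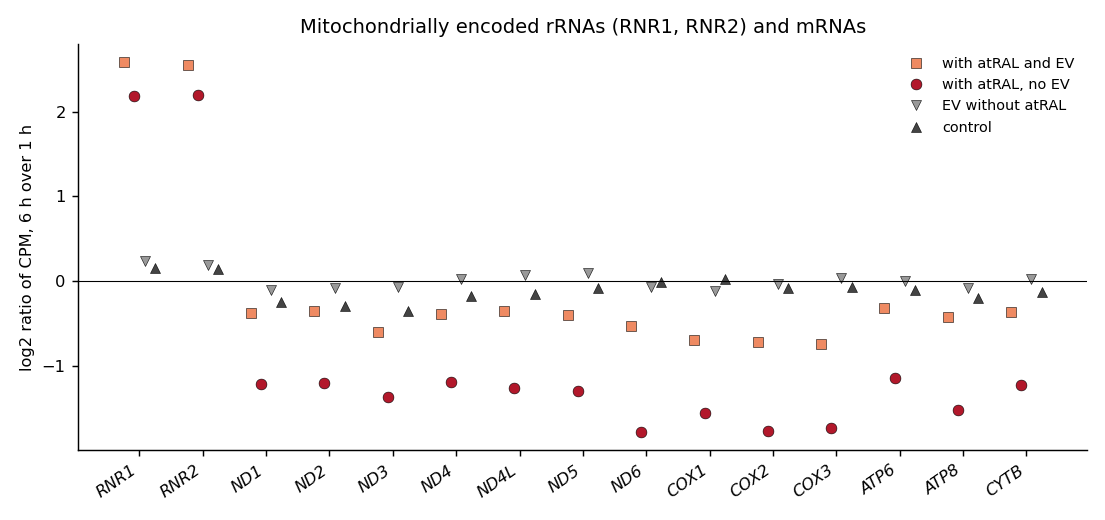
Log2 ratio of CPM at 6 h over 1 h for the 2 mitochondrial rRNAs and 13 mitochondrial mRNAs, in each of the 4 pairs of single libraries. With atRAL, RNR1 and RNR2 lie at 2.19 to 2.58 and all mRNAs below 0, the pair without EV lower than the pair with EV, and the pairs without atRAL lie between -0.352 and 0.242.

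Some members changed with time whether or not atRAL was present. Called in the same direction in both comparisons were 4 members that rose (CLK4, DIO2, HSPA8 and OTX2) and 13 that fell. Genes of hypoxia and glucose use were common among the falls. In that list 9 of 22 fell and 1 rose with atRAL, and 5 fell and 0 rose without, with medians of -0.394 and -0.342. PFKFB4, which controls glycolytic flux, fell (-1.16 ± 0.10 SE, adjusted p = 0.0014) with atRAL and also fell without (-1.16 ± 0.10 SE, adjusted p = 0.02). BNIP3, a mitophagy receptor, had log2 changes of -1.04 with atRAL and -1.21 without, and the AP-1 gene FOSL1, of another list, had -0.85 with atRAL and -0.87 without. The exception of the list was VEGFA, which encodes a vascular growth factor, with 1325 CPM with EV and 1696 CPM without EV at 6 h, against 878 CPM with EV and 689 CPM without EV at 1 h (0.95 ± 0.17 SE, adjusted p = 0.016). Members that rose with atRAL and fell without were ABL2, ATF4, CHAC1 and GADD45A. None of the 27 calls without atRAL was left when any 1 of the 4 libraries without atRAL was left out, where edgeR called 0 members.

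The change with time was also read within each pair. With EV, 452 members were at least 2-fold higher at 6 h and 481 at least 2-fold lower (background 5.34% and 6.88% of genes tested). Without EV the counts were 692 higher and 478 lower (background 8.21% and 6.4%). Higher in both pairs were 333 members, 73.7% of those with EV and 48.1% of those without EV, and lower in both were 208, 43.2% and 43.5%. Across the 12874 members the log2 ratios of the pairs had a Pearson correlation of 0.651. Of the 436 members called at least 2-fold higher, 328 (75.2%) had the smaller absolute log2 ratio in the pair with EV. The medians of the 436 were 1.31 with EV and 1.67 without EV. Over all 1901 members called higher the share was 63.3%, with medians of 0.614 with EV and 0.682 without EV. Of the 330 called at least 2-fold lower, 187 (56.7%) had the smaller absolute log2 ratio in the pair with EV. The medians of the 330 were -1.28 with EV and -1.34 without EV. Over all 1384 members called lower the share was 56.9%. Each pair is 1 library against 1, so these ratios have no replicate check and no p-value. Whether EV changed the size of the response was not tested.

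In the ATF4-pathway list the median log2 ratio was 1.20 with EV and 1.95 without EV, and in the NRF2 list 0.453 with EV and 0.927 without EV. HMOX1 had a ratio of 4.76 with EV and 6.35 without EV, and DDIT4 3.92 with EV and 4.85 without EV. CTH and CHAC1 differed less between the pairs, at 4.46 and 3.59 with EV and 4.74 and 3.93 without EV.

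Several immediate early genes had opposite time courses in both pairs. Of 29 members of that list 2 rose and 4 fell in the test over both pairs. The shares over all genes tested were 11.6% higher and 8.64% lower. The median ratio of the list was -1.39 with EV and 0.0262 without EV. FOS, an AP-1 subunit, had 8.14 CPM with EV and 111 CPM without EV at 6 h, against 48.7 CPM with EV and 5.32 CPM without EV at 1 h, a log2 ratio of -2.58 with EV and 4.38 without EV. FOSB, its relative, had 47.4 CPM with EV and 425 CPM without EV at 6 h, against 347 CPM with EV and 38.5 CPM without EV at 1 h, a ratio of -2.87 with EV and 3.46 without EV. ATF3, a stress-induced repressor, had 26.8 CPM with EV and 165 CPM without EV at 6 h, against 31.7 CPM with EV and 5.41 CPM without EV at 1 h, and NR4A3, an orphan nuclear receptor, 3.13 CPM with EV and 13.2 CPM without EV at 6 h, against 17 CPM with EV and 2.28 CPM without EV at 1 h. For FOS, FOSB and NR4A3 the high libraries were the one with EV at 1 h and the one without EV at 6 h, and for ATF3 the library without EV at 6 h stood above the rest. The growth-response factors EGR2 and EGR3 were highest in the library with EV at 1 h, with 1.2 CPM with EV and 1.55 CPM without EV at 6 h, against 38.5 CPM with EV and 3 CPM without EV at 1 h for EGR2 and 5.86 CPM with EV and 8.05 CPM without EV at 6 h, against 367 CPM with EV and 30.9 CPM without EV at 1 h for EGR3. At 1 h without atRAL, FOS and EGR3 were also higher with EV than in the control, at 41.3 and 2.19 CPM for FOS and 288 and 16.4 CPM for EGR3.

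Other members had a higher ratio with EV. ESM1, a proteoglycan gene, had 96.2 CPM with EV and 9.08 CPM without EV at 6 h, against 11.3 CPM with EV and 9.07 CPM without EV at 1 h, so that 1 of 4 libraries stood out. BMP2, a bone morphogenetic protein gene, had 65.8 CPM with EV and 15.1 CPM without EV at 6 h, against 6.36 CPM with EV and 6.84 CPM without EV at 1 h, and DKK1, an inhibitor of Wnt signals, had 16.9 CPM with EV and 2.12 CPM without EV at 6 h, against 16.6 CPM with EV and 17.3 CPM without EV at 1 h, where the library without EV at 6 h was the low one. KTI12 and TMEFF1, a membrane protein gene, had ratios of -1.11 and 1.82 with EV and -3.54 and -0.34 without EV. MIR34AHG and CA5B were listed at 0 in 1 of the 4 libraries with atRAL each (EV at 1 h for MIR34AHG, no EV at 1 h for CA5B) and otherwise at 2.75 to 8.31 CPM. None of these members, nor the immediate early genes of the paragraph before, was called in edgeR's test over both pairs. For those named for a large difference between the pairs, that difference is itself the spread that the test uses. Their missing calls follow from the choice and are no result.

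**Figure D5:**
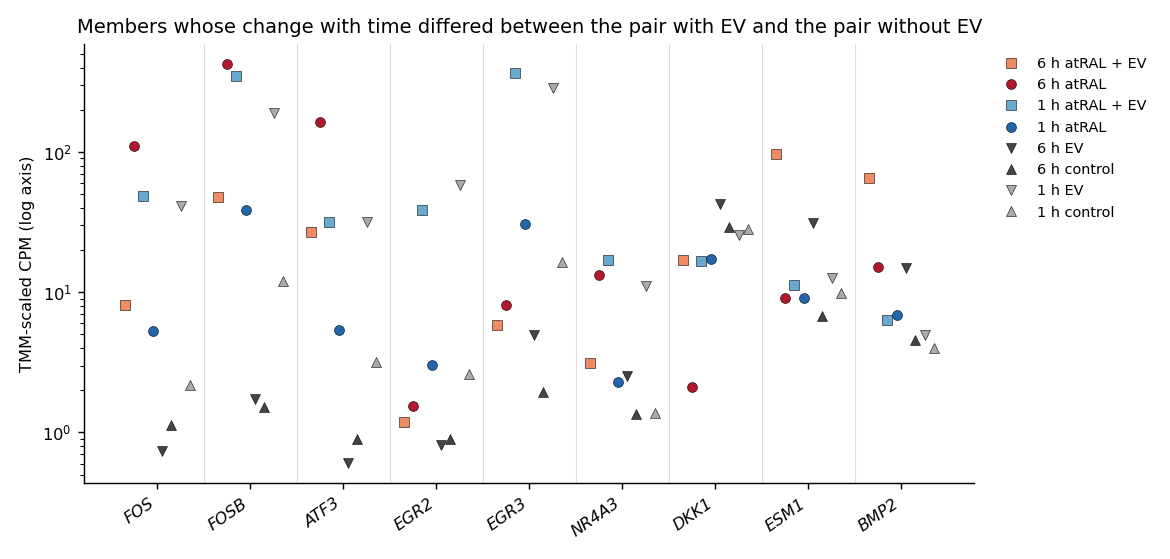
TMM-scaled CPM (log axis) of 9 members in each of the 8 libraries, in the order 6 h with atRAL, 1 h with atRAL, 6 h without atRAL and 1 h without atRAL. For FOS, FOSB, ATF3 and NR4A3 the library with EV is the lower one at 6 h with atRAL and the higher one at 1 h, and for ESM1 and BMP2 the library with EV at 6 h is the highest.

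Other groups moved less, beside 11.6% called higher and 8.64% called lower over all genes tested. With few calls, the ribosome biogenesis and clock lists do not stand out from these shares. In edgeR's test 0 of 28 cytosolic ribosomal protein genes were called (the smallest adjusted p was 0.121), with a median of 0.134, and 0 of 7 histone genes were called. RPL23 had the largest change of the ribosomal set (0.21 ± 0.08 SE, adjusted p = 0.12). Of 28 ribosome biogenesis genes 4 rose, among them RRP12 (1.20 ± 0.15 SE, adjusted p = 0.0045), and of 21 long noncoding RNAs, most of them snoRNA hosts, 9 rose and 0 fell, all by less than 2-fold, with SNHG7 at 0.85 ± 0.14 SE, adjusted p = 0.0096. Clock genes moved both ways, with 3 of 17 higher and 2 lower. NFIL3, a repressor of clock output, had 28.1 CPM with EV and 44.6 CPM without EV at 6 h, against 6.65 CPM with EV and 5.04 CPM without EV at 1 h (2.60 ± 0.33 SE, adjusted p = 0.0077), ARNTL, which encodes BMAL1, rose by 1.74 ± 0.12 SE, adjusted p = 0.00085, and DBP fell (-1.38 ± 0.21 SE, adjusted p = 0.0069). Metallothioneins were not called, and the zinc exporter gene SLC30A1 of the same list rose (0.75 ± 0.14 SE, adjusted p = 0.015, lost without the library with atRAL and no EV at 6 h, 0.0553). Among FOXO-type and thioredoxin-interacting genes 4 of 17 rose and 4 fell, with FBXO32, a ubiquitin ligase of atrophy, at 1.94 ± 0.25 SE, adjusted p = 0.0088 and TXNIP, an arrestin-like redox regulator, at -1.39 ± 0.24 SE, adjusted p = 0.017. TXNIP lost its call without the library with atRAL and EV at 1 h (adjusted p = 0.0687).

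By abundance, RNR2, PSAP, SQSTM1, HSPA8 and SLC7A5 were among the 6 members called higher that gained most CPM, and those called lower that lost most were COX1, THBS1, ND4, ACTB, COX2 and COX3. PSAP, which encodes the precursor of lysosomal saposins, had 4169 CPM with EV and 6917 CPM without EV at 6 h, against 3124 CPM with EV and 3188 CPM without EV at 1 h (0.77 ± 0.17 SE, adjusted p = 0.028), a call lost in 7 of 20 alternatives (adjusted p up to 0.143). Protein-coding genes made up 11696 of the members, of which 15.2% were higher and 11.2% lower. Of 632 long noncoding RNAs 12.3% were higher and 7.44% lower, and of 262 pseudogenes 1.53% and 3.44%. By genomic length, 8.74% of protein-coding genes in the shortest of 5 equal bins (up to 10577 bases) were higher and 11.2% lower, against 19.3% higher and 10.8% lower in the fourth bin and 15.5% higher and 14.05% lower in the longest. In the least abundant of 5 equal bins of members 9.09% were higher and 8.04% lower, and in the fourth bin 19.96% were higher and 11.1% lower. At the threshold itself, DCHS1 and LOC257396 reached exactly 100 counts in 1 library and PADI1 and DYNC1I2P1 reached 99.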

How the data were processed

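RNA of RPE-1 cells was sequenced as 8 libraries, 1 for each combination of time, atRAL and EV, with the TruSeq Stranded mRNA kit per the labels' protocols. The deposited table gives, per gene, raw read counts, FPKM and TPM made by the authors. GRCh38, HISAT2 2.1.0 and StringTie 2.1.3b were used per the submitters' processing notes. Which program counted reads, with which strand setting and on which annotation release, is not given in the sources used here, so counts of antisense, overlapping, readthrough and near-identical genes are uncertain. In the deposited counts the value 2 was more common than 1 (7137 against 6177 values). Totals ran from 45566237 to 71822269 counts per library.

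The deposited counts were tested with edgeR 4.0.16 in R 4.3.3 (quasi-likelihood F test, robust, two-sided, TMM scaling, filterByExpr with a minimum count of 10). The model had 6 coefficients for 8 libraries and 2 residual degrees of freedom: a mean for each time and atRAL state, and an EV effect within each atRAL state. It leaves a coefficient of variation of 13.9% across libraries. Fitted to the libraries with atRAL alone, the value was 16.1%. No condition has a replicate library, so both values describe the disagreement between the pairs with and without EV. They are not a spread among biological replicates. Of 46427 genes 17044 were tested and 29383 were not, and of the 12875 members 12874 were tested. P-values were adjusted by Benjamini-Hochberg over all genes tested, with 0.05 as the threshold for a call. CPM are TMM-scaled, log2 ratios of single libraries used a prior count of 2, and fold bounds used a floor of 3 counts per library, which covers counting error only. Deposited TPM were used for levels between genes. No set test was run. The procedure was also run on simulated data. No outcome of that run is reported here, and it does not stand as a check of the p-values.

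The members and gene lists were chosen with earlier results of these data known. Genes are named by a rule: the 12 highest and 12 lowest log2 changes among called members with an average log2 CPM of at least 1 and at least 1.5-fold in both pairs, the 8 highest and 8 lowest differences, up to 6 called members and 1 not called for each list, 6 in each direction for the EV pairs, 6 in each direction by CPM, and those at the threshold. The other genes named (among them ATF4, its kinases and partners, serine and folate enzymes, retinoid receptors, ID genes and RNR1) were chosen after their values were seen. A few genes that the rule names are not reported here. Alternatives were other scalings and filters, models without or with 1 shared EV effect, the 4 libraries with atRAL alone, DESeq2 1.42.0, limma 3.58.1 (voom, and log2 of the deposited FPKM plus 1 or 0.1), and leaving out each library. Promoter windows came from RefSeq (GRCh38.p14), and 12367 of the genes tested matched one by gene ID. Figures and tables were made with Python 3.11.15 and pandas 2.3.3.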

Additional observations from a re-analysis of the deposited data

Results flagged for a closer look

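The time change differed between cells with and without atRAL, in edgeR's test of the difference itself, for 652 members, of which 460 had the higher change with atRAL and 192 the lower. Among the genes named by the rule, the log2 difference (the change with atRAL minus the change without) was 5.67 for CHAC1, 5.26 for CTH, 4.70 for TRIB3, 4.31 for SESN2, 3.56 for RAB39B, 3.47 for PTPRH and 3.44 for JDP2. For INHBE the fitted difference was 13.9, which depends on the prior count because both libraries at 1 h with atRAL held 0 counts, and it is no bound. In the other direction it was -3.68 for BMP4, -3.47 for CAVIN2, -2.95 for GDF6, -2.87 for PALMD, -2.56 for ST6GAL2, -2.52 for SLITRK5, -2.40 for ADAMTS15 and -2.35 for CCDC85A.

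By gene list, the members with the higher change with atRAL numbered 13 of 21 for ATF4 regulators and stress signalling, 11 of 19 for amino acid synthesis and one-carbon genes, 9 of 14 for amino acid transporters, 11 of 20 for cytosolic aminoacyl-tRNA synthetases and 5 of 21 for retinoid genes. The share over all genes tested was 2.7%. Of the 16 differences given one by one above, those of CHAC1 and CTH kept their call in 19 alternatives and each of the others lost it in 3 to 8 of them.

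In 3109 of the 12874 members the single-library ratios of 6 h over 1 h, atRAL in both, pointed in opposite directions in the pairs with and without EV, in 20 of them by at least 2-fold in both pairs, and these differences were not tested. Among the members named for a large difference between the pairs there were 6 of opposite sign. Of these, FOS, FOSB and NR4A3 changed at least 2-fold in both pairs. The others were near 0 in 1 pair, with log2 ratios of 0.02 for DKK1 and -0.24 for ATF3 with EV and -0.34 for TMEFF1 without EV. The log2 ratio with EV minus that without EV was 3.04 for DKK1, 2.16 for TMEFF1, -4.94 for NR4A3, -5.16 for ATF3, -6.33 for FOSB and -6.95 for FOS.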

How the results depend on the processing

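None of the named called changes reversed its sign. Among all members called with atRAL, 1 or 2 reversed with log2(FPKM + 1), log2(FPKM + 0.1) and without the atRAL and EV library at 6 h, the atRAL library at 1 h or the atRAL and EV library at 1 h, and among the called differences 1 did without the control library at 6 h or at 1 h. With upper-quartile scaling more members were lower (1698) than higher (1579) with atRAL. Of 221 named members called with atRAL, 142 kept the call in all 20 alternatives. With the 4 libraries with atRAL alone, 938 members were higher and 703 lower, and with log2(FPKM + 1) and log2(FPKM + 0.1) 821 and 889 were lower. Without atRAL, where 5 members were higher and 22 lower, the alternatives gave 0 and 0 with no filter on low counts, 66 and 92 with no EV term, 120 and 168 with 1 shared EV effect, 207 and 302 with DESeq2, 0 and 0 with log2(FPKM + 1), and 9 and 9 with log2(FPKM + 0.1). The difference of the changes (460 and 192) became 217 and 78 with no filter, 749 and 379 with no EV term, 834 and 438 with 1 shared EV effect, 872 and 502 with DESeq2, 119 and 48 with log2(FPKM + 1), and 179 and 89 with log2(FPKM + 0.1). Leaving out each library in turn gave 939 to 1764 higher and 650 to 1438 lower with atRAL, 0 to 501 higher and 0 to 524 lower without, and 2 to 1159 higher and 0 to 823 lower for the difference. The low ends came without any 1 of the 4 libraries without atRAL, and for the counts without atRAL the high ends came without any 1 of those with atRAL. With 1 library left out, the model fits the rest of its atRAL state exactly, so the spread is estimated from the 4 libraries of the other state. How far this alone moved the counts was not tested. Of the 3285 members called with atRAL, DESeq2 also called 3180, upper-quartile scaling 2963 and the 4 libraries with atRAL alone 1620. With 2 residual degrees of freedom, a count of calls without atRAL depends on the estimate of the spread, and a missing call does not show that a gene stayed the same.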
